A study of Mus musculus with 14 samples.

Results

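The genes described here are 10 genes of MHC class I antigen presentation, taken as a named list from the 21887 protein-coding genes of the annotation on chromosomes 1 to 19, X and Y. They are the class I light chain B2m, the classical heavy chains H2-K1 and H2-D1, both subunits of the peptide transporter (Tap1 and Tap2), the loading factor Tapbp, the immunoproteasome subunits Psmb8, Psmb9 and Psmb10, and the transcriptional activator Nlrc5. The rule that lists them uses no measured value, although genes and lists were chosen with earlier results of these data known. Tap1, Tap2, Psmb8 and Psmb9 lie side by side on chromosome 17 and were also read as 1 block.

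The samples were Th1 cells, the interferon-gamma-producing helper T cells, differentiated in vitro from naive CD4+ T cells of mouse spleen. The tested genotype was C57BL/6J-Ets1-SE-KO (KO below), which by its name lacks a super-enhancer of Ets1, and the control genotype was C57BL/6J (WT). Cells of both genotypes were cultured for 6 days with antibodies to CD3 and CD28, IL-12 at 10 ng/mL and IL-2 at 1 ng/mL. CUT&RUN, in which an antibody guides a nuclease to cut out the DNA around a bound protein or mark, was run for H3K27ac (histone H3 acetylated at lysine 27, a mark of active promoters and enhancers), for CTCF (a zinc-finger protein that anchors chromatin loops) and for ETS1 (a transcription factor of lymphocytes), with 2 KO and 2 WT libraries for each. IgG, the antibody control, had 1 library per genotype. By their titles the KO libraries of an antibody came from separate biological replicates, while the WT libraries were technical replicates of 1 biological replicate, so the spread between WT libraries is technical and WT stands for 1 biological sample by the titles. The names of the deposited CTCF files number the WT libraries differently from the titles, so for CTCF this could not be settled. Every n of 2 below counts libraries, and every permutation test treats them as independent, so its p is not a test over biological replicates. Neither age nor sex of the mice was found in the labels, and the element deleted in the KO was not located here, so the genotype labels were not checked against it.

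Each deposited file was a list of called peaks, without read counts, so sequencing depth is unknown. The measurement was therefore the length of DNA under called peaks, the covered length, in a window of the gene body with 10 kb on each side. H3K27ac lists held 26465 and 28647 peaks in KO cells, against 24711 and 24581 in WT cells. CTCF lists held 40502 and 39345 peaks in KO cells and 33144 and 31368 in WT cells. ETS1 lists were the least even, with 40705 and 9344 peaks in KO cells and 14013 and 23419 in WT cells. Genome-wide covered length was 1.31 times as long in KO as in WT cells for H3K27ac, 1.31 times for CTCF and 1.06 times for ETS1. The IgG lists held 285 peaks in KO and 2 peaks in WT cells, and none lay in a window of the 10 genes. H3K27ac at marker genes mostly followed the label. All 5 T cell markers found in the annotation had a peak within 1 kb of the start in all 4 libraries, and their summed covered length was 39.7 and 37.5 kb in KO and 30.6 and 30.0 kb in WT libraries. Of the 3 Th1 markers, Tbx21 and Il12rb2 had such a peak in all 4 libraries and Cxcr3 had no H3K27ac in its window. Windows of the NK, erythroid and non-haematopoietic markers held 0 kb. The 4 B cell markers had no start peak in any library, although their windows summed to 7.49 and 8.58 kb in KO and 5.79 and 4.26 kb in WT libraries, nearly all of it around Cd79a. Of the 5 myeloid markers, Cd68 and Csf1r had a start peak in all 4 libraries, Lyz2 and Adgre1 were at 0 kb, and the list summed to 8.22 and 10.7 kb in KO and 7.07 and 5.80 kb in WT libraries. Of the 2 CD8 T cell markers, Cd8a was at 0 kb, Cd8b1 had a start peak in all 4 libraries, and the list summed to 1.09 and 0.485 kb in KO and 0.287 and 0.501 kb in WT libraries. The part of such cells in the results below was not tested, and more cells carrying a mark cannot be told apart from more of the mark per cell.

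MHC class I molecules show peptides of a cell's own proteins to CD8 T cells. The immunoproteasome, a form of the proteasome that takes up interferon-induced catalytic subunits, cuts proteins into peptides, the TAP transporter carries these into the endoplasmic reticulum, and tapasin holds a heavy chain paired with beta-2 microglobulin next to the transporter until a peptide is bound. Interferon-gamma, which Th1 cells make themselves, raises transcription of the whole pathway through IRF factors and NLRC5, and class I promoters are known for a compact row of elements bound by NF-kB, IRF factors, the RFX and CREB/ATF families and NF-Y.

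Promoter sequences of 8 of the 10 genes were found in the RefSeq table of GRCm38.p6, each of 300 bases, most of them before the start used there. At H2-K1 that start lies 272 bases inside the outer gene end, from which its peak positions were measured. The H2-K1 sequence therefore lies within the annotated gene. Those of the light chain, both heavy chains and Tap1 are shown because their known elements can be read in the letters. Peaks of all 3 antibodies met at these starts in at least 1 library, but they did so at all 10 genes in the first KO library. Capitals mark matches, on either strand, to an IRF core (AANNGAAA), an NF-kB-like site (GGGNNTTCC), a CRE-like site (TGACG) and a CCAAT box (CCAAT).
B2m (chr2:122147437-122147736, plus strand): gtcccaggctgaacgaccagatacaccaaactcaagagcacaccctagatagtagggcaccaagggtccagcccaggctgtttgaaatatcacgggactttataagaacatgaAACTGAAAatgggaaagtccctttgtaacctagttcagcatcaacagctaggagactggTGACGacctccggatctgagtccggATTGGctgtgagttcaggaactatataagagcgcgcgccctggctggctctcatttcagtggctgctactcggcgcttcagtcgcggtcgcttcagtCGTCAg
H2-K1 (chr17:34000298-34000597, minus strand): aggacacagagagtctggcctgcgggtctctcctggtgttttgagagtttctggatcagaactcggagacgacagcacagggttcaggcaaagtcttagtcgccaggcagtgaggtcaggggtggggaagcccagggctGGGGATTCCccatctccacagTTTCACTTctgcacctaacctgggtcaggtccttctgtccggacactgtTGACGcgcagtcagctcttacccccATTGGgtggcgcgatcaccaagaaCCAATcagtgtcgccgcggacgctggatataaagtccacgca
H2-D1 (chr17:35262844-35263143, plus strand): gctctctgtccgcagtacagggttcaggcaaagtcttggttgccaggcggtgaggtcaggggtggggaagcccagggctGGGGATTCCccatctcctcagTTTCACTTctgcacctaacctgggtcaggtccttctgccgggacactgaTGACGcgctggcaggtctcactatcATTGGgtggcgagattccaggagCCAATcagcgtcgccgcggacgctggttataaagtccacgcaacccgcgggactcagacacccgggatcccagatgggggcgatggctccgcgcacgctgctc
Tap1 (chr17:34187306-34187605, plus strand): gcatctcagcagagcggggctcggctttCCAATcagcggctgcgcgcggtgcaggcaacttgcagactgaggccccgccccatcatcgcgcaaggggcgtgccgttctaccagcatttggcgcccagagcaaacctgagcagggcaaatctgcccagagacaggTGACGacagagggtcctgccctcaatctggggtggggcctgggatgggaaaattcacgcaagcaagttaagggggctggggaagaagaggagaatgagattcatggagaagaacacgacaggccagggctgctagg

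The H2-K1 and H2-D1 promoters carry the same row in the same order, an NF-kB-like site, an IRF core, a CRE-like site and 2 CCAAT boxes. Aligned with each other, they were identical at 214 of 239 aligned bases (89.5%, with 122 gap positions). B2m has an IRF core, a CRE-like site on each strand and a CCAAT box, and Tap1 a CCAAT box and a CRE-like site. Over all 8 promoters the IRF core was present in 3 (B2m, H2-K1 and H2-D1), where 24.2% of 27025 promoters hold it. The NF-kB-like site was present in 2 of 8, H2-K1 and H2-D1 (5.72% of all promoters). The CRE-like site was in 5 of 8 (21.0%) and the CCAAT box in 6 of 8 (37.9%). The Psmb9 and Tap1 promoters share 275 bases. Their CRE-like and CCAAT matches are the same bases, counted for both genes. Because of this overlap and the likeness of H2-K1 and H2-D1, the 8 promoters are not independent. The counts therefore do not show enrichment over all promoters. The core of ETS-family sites, GGAA, was in all 8, but 95.9% of all promoters hold these 4 letters, and the longer CCGGAA was in none of the 8 (15.2% of all promoters). The GGAA core can overlap the NF-kB-like site, whose last letters hold it on the other strand. Such matches describe letters and do not show binding.

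H3K27ac marked the starts of all 10 genes in every library, and the covered length around most of them was longer in KO than in WT cells. A peak within 1 kb of the start was present in 10 of 10 genes in all 4 libraries, where 38.9% of all genes had one in all 4. At 8 of the 10 genes both KO libraries had more covered length than both WT libraries, none had the reverse, and the libraries of H2-K1 and H2-D1 overlapped. This share is to be read against all 13284 genes with an H3K27ac peak, of which 54.0% had both KO above both WT libraries and 6.37% the reverse. The 8 genes include Tap1, Tap2, Psmb8 and Psmb9, whose windows share peaks, so the 8 are not independent. Summed over the windows of the 10 genes, overlapping windows counted once, covered length was 39.1 and 36.9 kb in KO libraries and 28.6 and 30.0 kb in WT libraries (38.0 ± 1.55 kb against 29.3 ± 0.991 kb, SD, n = 2 each). The ratio of 1.30 lay close to the 1.31 of the whole genome. The exact two-sided permutation test over libraries gave p = 0.333, the smallest value that 2 against 2 libraries allow, so no difference here can pass a threshold of 0.05.

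**Figure D1:**
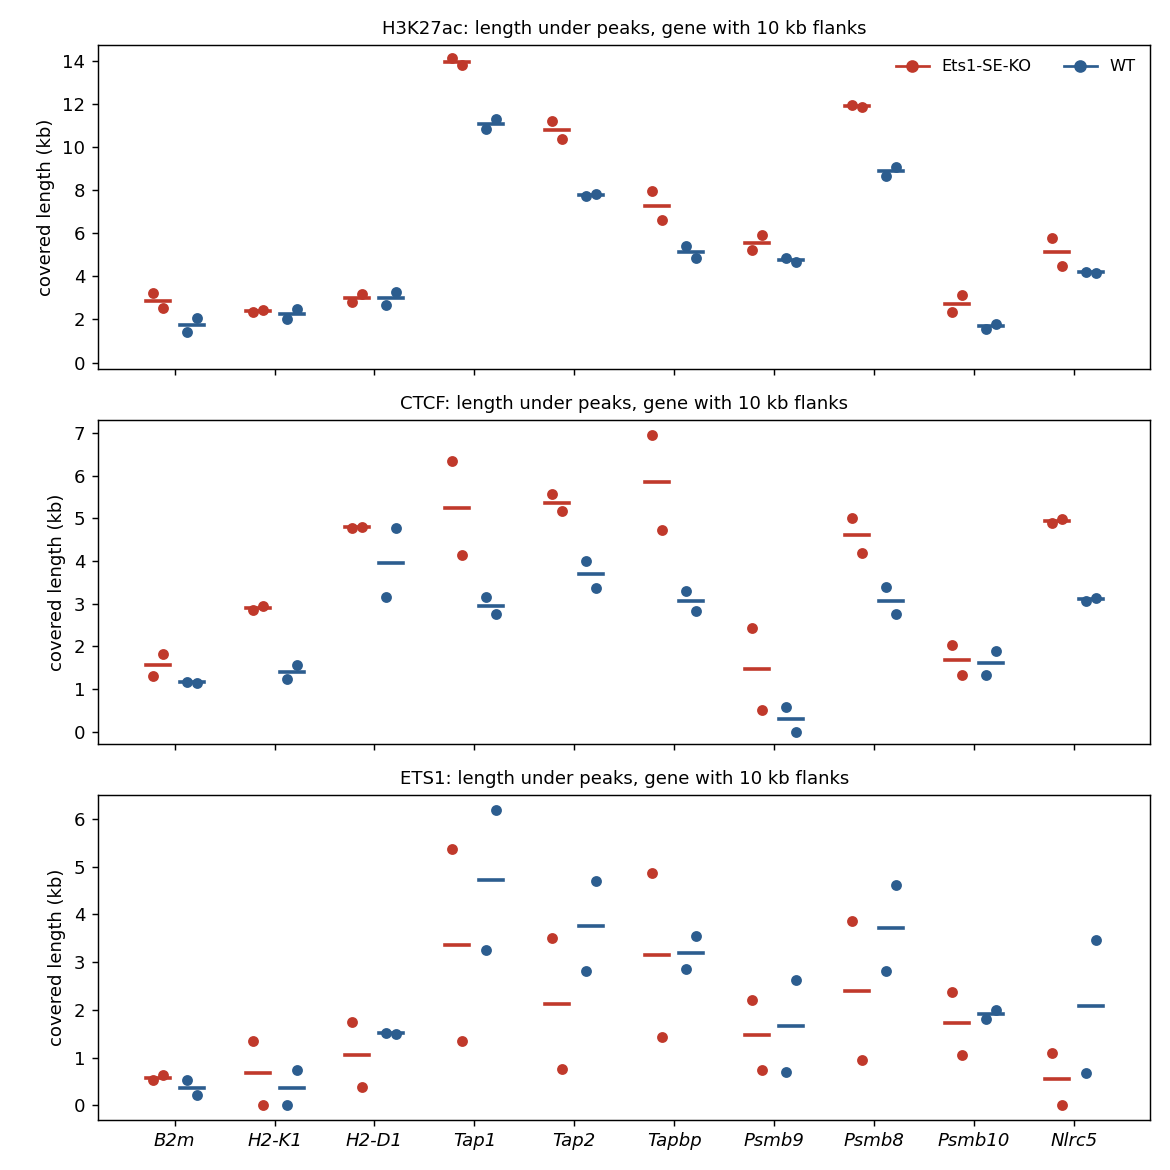
Covered length under peaks (kb) in the window of each gene, with 1 panel per antibody and each point 1 library; short lines are means of 2 libraries, Ets1-SE-KO in red on the left and WT in blue on the right of each pair. H3K27ac points of KO and WT cells separate at 8 genes and overlap at H2-K1 and H2-D1, while ETS1 points overlap at all 10.

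Among the class I chains, the light chain differed from the heavy chains in these windows with 10 kb flanks. B2m (chromosome 2, 122147687 to 122153082, plus strand) had 3.23 and 2.52 kb of H3K27ac in KO libraries, against 1.42 and 2.05 kb in WT libraries. All of it was a single peak over the start, wider in both KO libraries, and the log2 ratio was 0.50, ranging from 0.34 to 0.68 when each library in turn was left out (log2 ratios here compare group means after adding 1 kb to each; the median of all genes with a peak was 0.18). The overlapping gene Patl2 shares that region.

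H2-K1 (chromosome 17, 33996012 to 34000619, minus strand) had 2.32 and 2.42 kb of H3K27ac in KO libraries and 2.03 and 2.49 kb in WT libraries. H2-D1 (chromosome 17, 35263094 to 35267497, plus strand) had 2.83 and 3.17 kb in KO libraries and 2.67 and 3.28 kb in WT libraries. At both heavy chain genes the WT library with more coverage exceeded both KO libraries, and the log2 ratios were 0.05 and 0.01. This depended on the window. With 25 kb flanks both KO exceeded both WT libraries at both genes. The log2 ratios were then 0.15 at H2-K1 and 0.39 at H2-D1, beside 0.42 at B2m. At H2-K1 the whole of it was 1 peak over the start in each library. H2-D1 had a start peak of 2.16 to 2.19 kb in the 4 libraries together with small peaks upstream. The start peak of H2-D1 ranked in the top 10.2 and 7.18% of the lists of KO cells and the top 15.8 and 19.4% in WT cells, and that of H2-K1 in the top 20.9 and 17.6% in KO and 22.95 and 27.9% in WT cells. Ranks come from lists of different lengths and show position within a list, not change. Class I heavy chain genes form a multigene family: of the 263 words of 38 bases in each of these promoters, 13 (4.94%) occur in both, while at 61 bases none does, and reads of both lengths were used in the study. A single 38-base read within the shared words could fit either gene. How reads were assigned between the heavy chain genes was not examined.

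**Figure D2:**
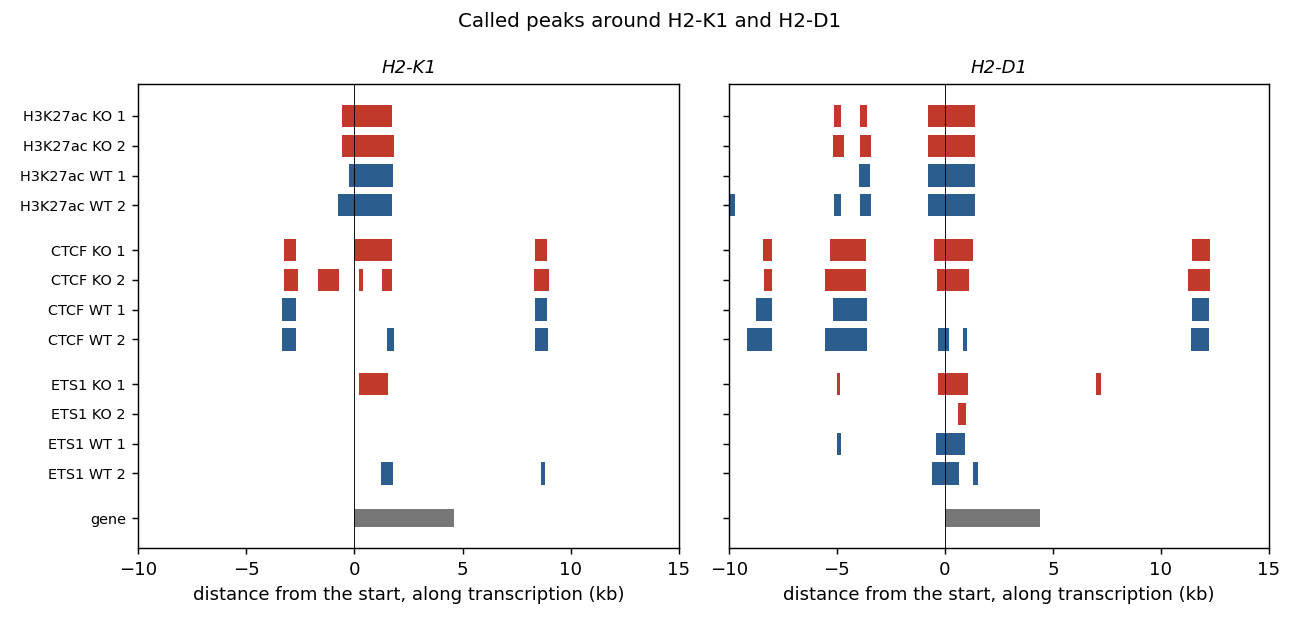
Called peaks around H2-K1 and H2-D1 in each library; the x axis is the distance (kb) from the outer gene end at the start, along transcription, rows are libraries with KO (red) above WT (blue), and grey bars are the genes. The H3K27ac peak over the start is 2.16 to 2.19 kb wide at H2-D1 and 2.03 to 2.49 kb wide at H2-K1. CTCF peaks on both sides of each gene are present in all 4 libraries.

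The windows of the transporter genes Tap1 and Tap2 and of Psmb8, which lies between them, held the longest H3K27ac coverage of the 10 genes in every library. Tap1 (chromosome 17, 34187556 to 34197225, plus strand) had 14.1 and 13.8 kb in KO libraries and 10.8 and 11.3 kb in WT libraries (log2 ratio 0.31). Tap2 (chromosome 17, 34204479 to 34216321) had 11.2 and 10.4 kb in KO libraries and 7.72 and 7.84 kb in WT libraries (0.42). Psmb8 (chromosome 17, 34198195 to 34201454, plus strand), a catalytic subunit of the immunoproteasome, had 12.0 and 11.8 kb in KO libraries and 8.67 and 9.09 kb in WT libraries (0.38). The windows of these 3 genes and of Psmb9 share peaks, so their values are not independent. Psmb9 (chromosome 17, 34182030 to 34187330, minus strand), another catalytic subunit, had 5.22 and 5.90 kb in KO libraries and 4.87 and 4.68 kb in WT libraries (0.18, at the median of all genes). In the gene body of Psmb9 alone the genotypes overlapped (0.01).

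Read as 1 block, the 4 genes had 14.7 and 14.6 kb of H3K27ac in KO libraries and 11.3 kb in each WT library (14.6 ± 0.0559 kb against 11.3 ± 0.00778 kb, SD, n = 2 each; ratio 1.29, log2 ratio 0.34, exact permutation p = 0.333, the smallest possible). Most of the difference lay between the end of Tap1 and the start of Tap2, where coverage was 9.96 and 8.88 kb in KO libraries and 6.92 and 7.51 kb in WT libraries. A further region inside Tap1 (chr17:34194159-34195209) had 1.01 and 1.04 kb in KO libraries and 0.332 and 0.327 kb in WT libraries. Between Tap1 and Tap2 the first KO library had a single peak of 9.96 kb (chr17:34196269-34206226), which runs across all of Psmb8, and the second had peaks of 5.71 and 3.17 kb. Each WT library had 3 separate peaks over the same stretch, of 3.07, 1.24 and 2.62 kb in the first and 3.03, 1.71 and 2.77 kb in the second. The coverage was thus joined in KO cells where WT cells had gaps, and counted as peaks the block read 4 and 7 in KO against 7 and 6 in WT libraries, which turns its log2 ratio to -0.21.

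The start shared by Psmb9 and Tap1, which are transcribed away from each other, behaved otherwise. One H3K27ac peak covered both starts in every library, 3.15 and 3.59 kb wide in KO and 3.16 and 3.22 kb wide in WT cells. It ranked in the top 10.2 and 13.3% of the KO lists and the top 10.7 and 10.8% of the WT lists. Within Tap1, 1 short region (chr17:34190083-34190592) was called in both WT and neither KO libraries, with peaks near the bottom of the lists (top 94.5 and 93.1%).

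**Figure D3:**
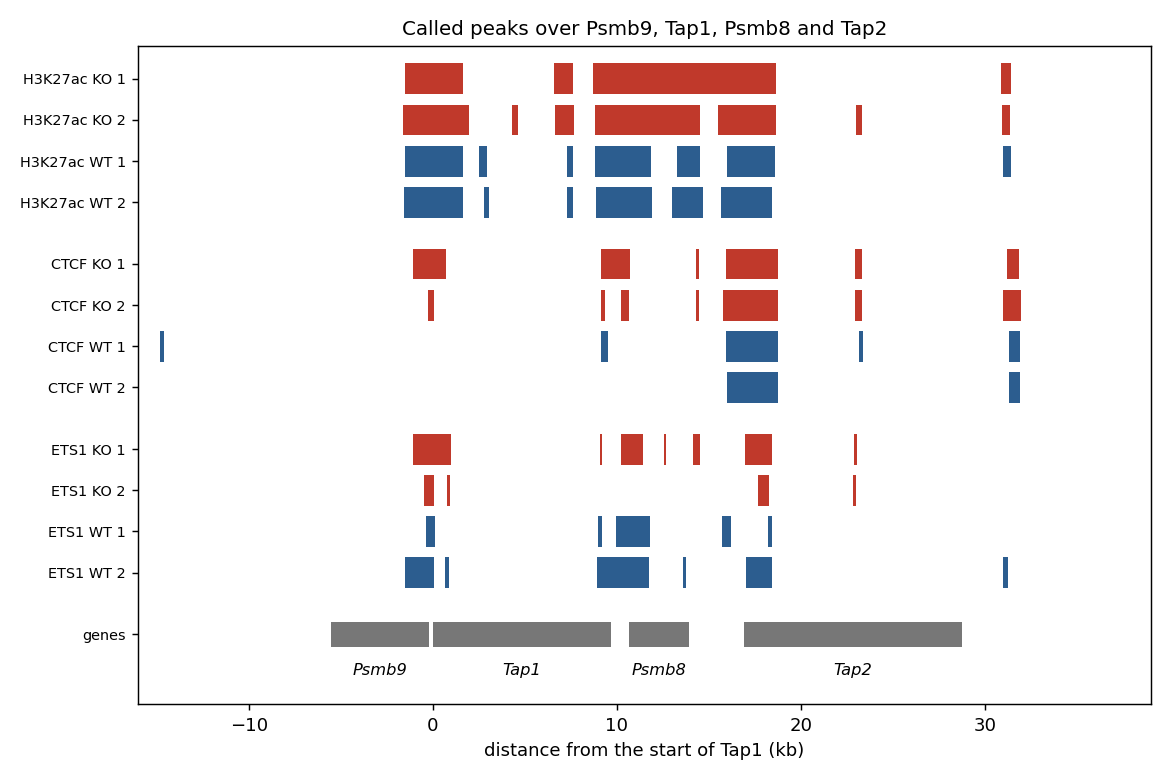
Called peaks over the Psmb9, Tap1, Psmb8 and Tap2 block in each library; the x axis is the distance (kb) from the start of Tap1, rows are libraries grouped by antibody with KO (red) above WT (blue), and grey bars are gene bodies. The H3K27ac peaks between the end of Tap1 and the start of Tap2 are joined in 1 piece of 9.96 kb or 2 pieces in KO libraries and split in 3 pieces in WT libraries.

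Tapbp (chromosome 17, 33919478 to 33929290, plus strand), which encodes tapasin, had 7.94 and 6.62 kb of H3K27ac in KO libraries and 5.40 and 4.87 kb in WT libraries (log2 ratio 0.43). Its window also holds Daxx, Zbtb22, Rgl2 and Pfdn6, and part of the coverage lies over them. In the gene itself, 1 short region (chr17:33926286-33926563) was called in both KO and neither WT libraries, again low in the lists (top 94.8 and 92.7%). Across the windows, H3K27ac peaks merged over the 4 libraries formed 30 regions, of which 16 were present in all 4, 1 in KO only and 1 in WT only. Genome-wide, 7.10% of 36466 such regions were called in both KO and neither WT libraries and 2.70% in both WT and neither KO libraries.

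Psmb10 (chromosome 8, 105935728 to 105938392, minus strand), the remaining immunoproteasome subunit, had 2.33 and 3.12 kb of H3K27ac in KO libraries and 1.56 and 1.80 kb in WT libraries (log2 ratio 0.48). Its start peak was the best ranked of the 10 genes in 3 of 4 libraries (in the second KO library that of H2-D1 ranked higher), at the top 5.51 and 7.74% of the KO lists and the top 5.93 and 6.89% of the WT lists. Nlrc5 (chromosome 8, 94434335 to 94527272), the class I transactivator, stood at the other end, with start peaks in the top 41.7 and 50.4% of the KO lists and the top 51.9 and 33.4% of the WT lists. Its covered length was 5.78 and 4.47 kb in KO libraries and 4.20 and 4.17 kb in WT libraries (0.24). The second KO library exceeded the WT libraries by a small margin, and the genotypes overlapped at Nlrc5 when each library was cut to the same number of best-scored peaks (0.16). For Nlrc5 and Tap2 the annotation used here gives no strand, and the start was taken as either gene end: H3K27ac peaks lay at the lower-coordinate end.

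**Figure D4:**
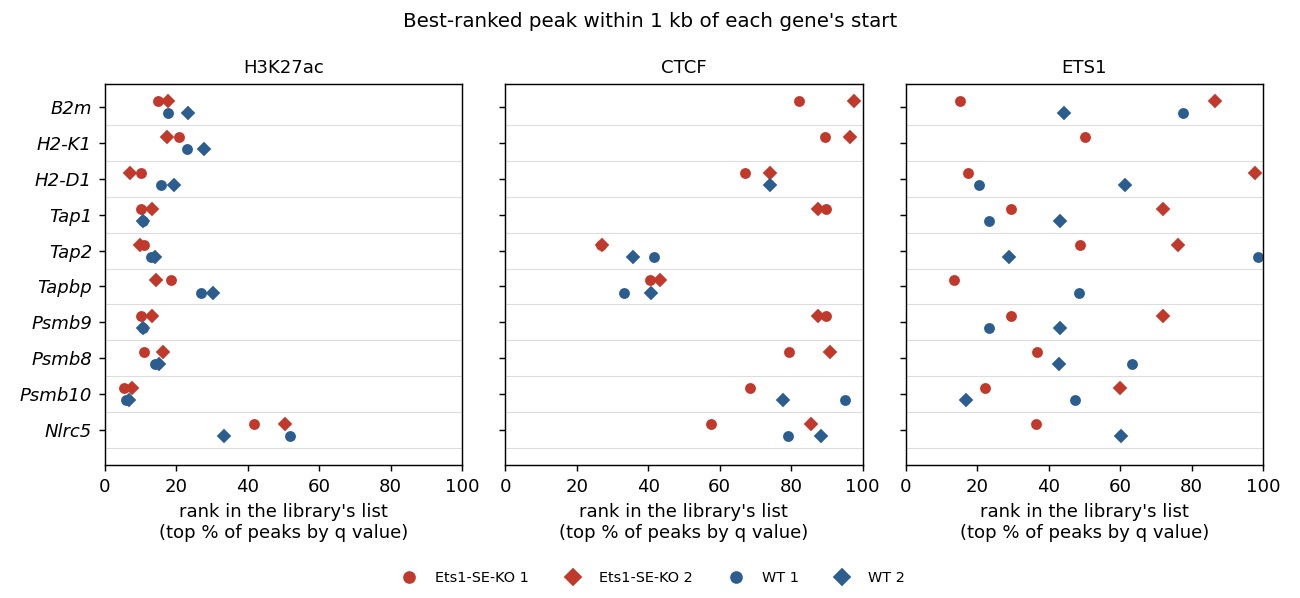
Rank of the best-placed peak within 1 kb of each gene's start, as the top percentage of its library's list ordered by the authors' q value (0 at the left is the strongest peak; for Tap2 and Nlrc5 the lower-coordinate end), with KO in red above WT in blue and no point where a library had no peak. H3K27ac start peaks of 9 genes lie in the top 30.3% and those of Nlrc5 further down, and most CTCF start peaks lie in the weaker part of the lists.

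CTCF peaks at these genes included strong sites beside or inside some genes, present in every library, and weak peaks over several starts, called mostly in KO cells. Other peaks were of neither kind. The start peaks of Tap2 and Tapbp were present in all 4 libraries and ranked between the top 26.9 and 43.2%. A site inside Nlrc5 (chr8:94458638-94458988) was also present in all 4 but weak, between the top 83.4 and 94.2%. At 8 of 10 genes both KO libraries had more CTCF coverage than both WT libraries, and the libraries of Psmb9 and Psmb10 overlapped. No gene had the reverse. Among all 16073 genes with a CTCF peak, 56.3% had both KO above both WT libraries and 3.02% the reverse. Here too the 8 genes are not independent, since they include Tap1, Tap2 and Psmb8, whose windows share peaks. Over all windows, CTCF covered 30.2 and 26.1 kb in KO libraries and 17.4 and 18.7 kb in WT libraries (28.1 ± 2.92 kb against 18.1 ± 0.914 kb, SD, n = 2 each). The ratio was 1.55, beside 1.31 genome-wide, and the exact permutation p was 0.333, the smallest possible. When each library was cut to its 31368 best-scored peaks, the number in the shortest list, 3 of 10 genes still had both KO above both WT libraries. The share of all genes was not taken after this cut, so the fall cannot be read as particular to these genes.

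At the starts, a CTCF peak was called in 10 and 9 of 10 genes in KO libraries and in 4 and 5 in WT libraries. Over all genes these shares were 49.96 and 48.9% in KO and 39.9 and 40.0% in WT libraries. Tap2, Tapbp and Nlrc5 had one in all 4 libraries (3 of 10, where 35.1% of all genes did). B2m, H2-K1, Tap1, Psmb8 and Psmb9 had one in both KO and neither WT libraries (5 of 10, where 4.89% of all genes did). Tap1 and Psmb9 share the same peak, so the 5 genes stand for 4 places. These peaks were among the weakest of their lists: those of B2m ranked at the top 82.3 and 97.5%, of H2-K1 at 89.6 and 96.5%, of Tap1 and Psmb9 at 89.7 and 87.6%, and of Psmb8 at 79.3 and 90.8%. WT cells were not without CTCF peaks nearby. The same merged region held a peak beyond 1 kb in the second WT library at H2-K1 (top 90.4%). At Psmb8 it held such a peak in the first WT library (top 90.6%). Within 500 bp the 5 genes were H2-K1, Tap1, Tapbp, Psmb8 and Psmb9, with B2m no longer among them. With the 31368 best-scored peaks of each library, 0 of 10 genes had a start peak in both KO and neither WT libraries, and the starts with a peak numbered 5 and 4 in KO and 3 and 5 in WT libraries. The matching shares of all genes were not taken.

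By region, the windows held 33 merged CTCF regions, 22 of them in all 4 libraries, 3 in both KO and neither WT libraries, and 0 in WT only. Genome-wide, 8.61% of 47584 CTCF regions were KO only and 0.580% were WT only. The 3 KO-only regions lay at the Psmb9 and Tap1 starts (chr17:34186501-34188286), just past the end of Psmb8 (chr17:34201846-34202046) and at the start of B2m (chr2:122148074-122148729). All 3 overlapped an H3K27ac region that was called in all 4 libraries, which 33.8% of all KO-only CTCF regions did.

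CTCF coverage around the heavy chains differed mostly at the starts. H2-K1 had 2.85 and 2.96 kb in KO libraries and 1.22 and 1.57 kb in WT libraries (log2 ratio 0.70). H2-K1 lies between a pair of CTCF sites called in all 4 libraries, one past the gene's 3' end (chr17:33991631-33992328, top 4.63 and 6.30% in KO and 4.48 and 3.64% in WT lists) and one upstream (chr17:34003247-34003974, top 19.5 and 11.1% in KO and 13.7 and 9.11% in WT lists). H2-D1 had 4.78 and 4.79 kb in KO libraries and 3.15 and 4.77 kb in WT libraries (0.22); the second WT library lay just below the KO libraries. It too has a site past its 3' end (chr17:35274356-35275376, top 7.11 and 8.95% in KO and 6.25 and 8.72% in WT lists) and one upstream (chr17:35257536-35259505, top 10.9 and 17.1% in KO and 16.7 and 11.9% in WT lists). Of these 4 flanking sites, the one upstream of H2-D1 overlapped an H3K27ac region called in all 4 libraries. B2m had 1.31 and 1.81 kb of CTCF in KO libraries and 1.17 and 1.15 kb in WT libraries (0.25).

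In the block, CTCF covered 7.36 and 5.46 kb in KO libraries and 4.22 and 3.37 kb in WT libraries (ratio 1.69, log2 ratio 0.63, exact permutation p = 0.333). With the 31368 best-scored peaks the log2 ratio was 0.01. The constant feature of the block was a broad CTCF peak over the start of Tap2, 2.80 and 2.99 kb wide in KO libraries and 2.80 and 2.75 kb wide in WT libraries. By gene, Tap1 had 6.34 and 4.14 kb in KO and 3.15 and 2.75 kb in WT libraries, Tap2 5.58 and 5.17 kb in KO and 4.00 and 3.37 kb in WT libraries, and Psmb8 5.003 and 4.20 kb in KO and 3.39 and 2.75 kb in WT libraries. Psmb9 had 2.44 and 0.506 kb in KO and 0.573 and 0 kb in WT libraries, so that the first KO library stood alone.

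Tapbp had 6.96 and 4.72 kb of CTCF in KO libraries and 3.29 and 2.84 kb in WT libraries (log2 ratio 0.75). Psmb10 had 2.03 and 1.33 kb in KO libraries and 1.32 and 1.89 kb in WT libraries (0.04), with a strong site in all 4 libraries over the neighbouring gene Pskh1 (chr8:105930489-105931404). Nlrc5 had 4.88 and 4.98 kb in KO libraries and 3.06 and 3.14 kb in WT libraries (0.53), and its strongest site lay inside the gene (chr8:94491935-94493653, top 3.83 and 10.2% in KO and 10.5 and 9.22% in WT lists) in a region without H3K27ac common to all 4 libraries.

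**Figure D5:**
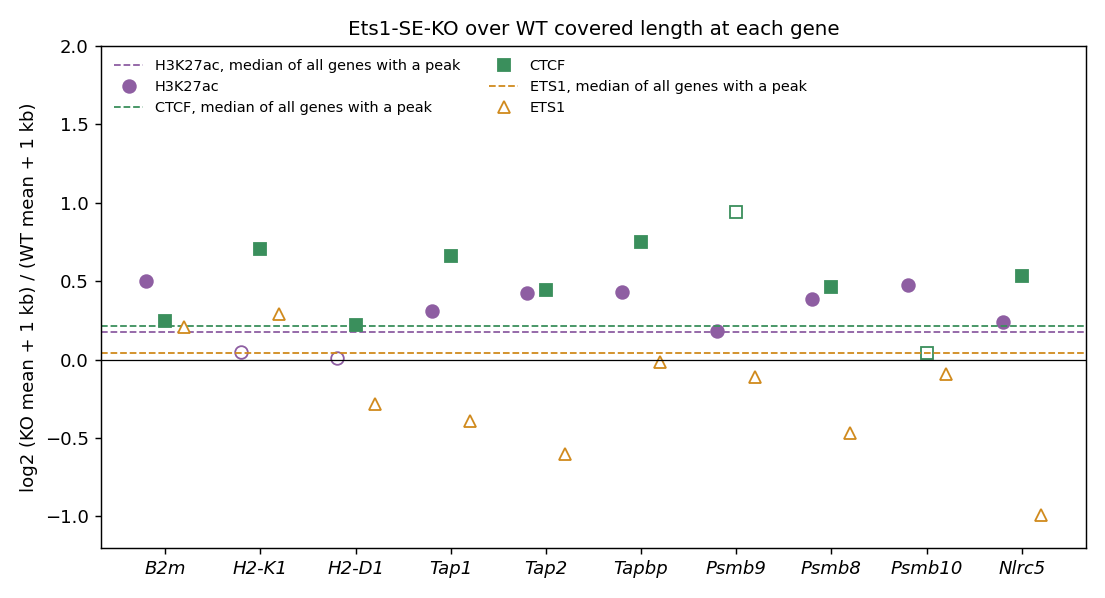
Log2 ratio of mean covered length, KO over WT, each mean with 1 kb added, for each gene and antibody (circles H3K27ac, squares CTCF, triangles ETS1); filled symbols mark genes whose KO and WT libraries do not overlap, and dashed lines are the medians of all genes with a peak. H3K27ac and CTCF values of the 10 genes lie at or above 0, and ETS1 values, all open, lie between -0.99 and 0.29.

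ETS1 was called at the starts of most of the genes in both genotypes, and its libraries of 1 genotype differed more from each other than the genotypes did. A start peak was present in 10 and 6 of 10 genes in KO libraries and in 8 and 8 in WT libraries. B2m, H2-D1, Tap1, Tap2, Psmb9 and Psmb10 had one in all 4 libraries (6 of 10, where 27.5% of all genes did). At 500 bp from the start, 3 of 10 had one in all 4. For covered length the KO and WT libraries overlapped at all 10 genes. Among all 16474 genes with an ETS1 peak, 3.86% had both KO above both WT libraries and 7.47% the reverse.

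Summed over the windows, ETS1 covered 17.5 and 5.01 kb in KO libraries and 10.7 and 17.9 kb in WT libraries (11.3 ± 8.84 kb against 14.3 ± 5.12 kb, SD, n = 2 each; log2 ratio -0.32, exact two-sided permutation p = 0.667). The second KO library, which had the shortest ETS1 list of the study, had the lowest sum, and without it the log2 ratio was 0.28. Without the second WT library it was 0.07. The block read 5.56 and 1.498 kb in KO libraries and 3.26 and 6.47 kb in WT libraries (log2 ratio -0.37, p = 0.667 in the same exact permutation test); without the second KO library its log2 ratio was 0.16, and without the second WT library 0.09.

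By gene, the class I chains had little ETS1. B2m had 0.522 and 0.641 kb in KO libraries and 0.531 and 0.207 kb in WT libraries. H2-K1 had 1.35 and 0 kb in KO libraries and 0 and 0.741 kb in WT libraries, with a peak in 1 of 2 libraries of each genotype. H2-D1 had 1.74 and 0.381 kb in KO libraries and 1.52 and 1.49 kb in WT libraries. The 3 genes thus showed no order of the genotypes.

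Coverage was longer in the windows of the transporter genes and of Tapbp. Tap1 had 5.37 and 1.34 kb of ETS1 in KO libraries and 3.26 and 6.19 kb in WT libraries. Tap2 had 3.50 and 0.767 kb in KO libraries and 2.81 and 4.71 kb in WT libraries. Tapbp had 4.87 and 1.43 kb in KO libraries and 2.86 and 3.54 kb in WT libraries. Part of this lay over the neighbours Daxx, Zbtb22 and Rgl2. The body of Tapbp alone held 1.28 and 0 kb in KO libraries and 1.14 and 0.068 kb in WT libraries. In each of these windows the second KO library was lowest, as it was for the total number of peaks.

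Of the immunoproteasome subunits, Psmb8 had 3.85 and 0.950 kb of ETS1 in KO libraries and 2.81 and 4.61 kb in WT libraries. Psmb9 had 2.20 and 0.731 kb in KO libraries and 0.704 and 2.63 kb in WT libraries, and Psmb10 had 2.38 and 1.06 kb in KO libraries and 1.82 and 1.99 kb in WT libraries. Nlrc5 had 1.10 and 0 kb in KO libraries and 0.688 and 3.47 kb in WT libraries (log2 ratio -0.99). Most of this rested on the second WT library, without which the ratio was -0.12. When the gene bodies alone were read, Psmb8 and Psmb10 had both WT above both KO libraries, and no gene had the reverse. The share of all genes was not taken for gene bodies.

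The windows held 41 merged ETS1 regions, of which 7 were called in all 4 libraries, 1 in both KO and neither WT libraries, inside Tap2 (chr17:34210412-34210628), and 0 in WT only. Genome-wide, 0.518% of 54969 ETS1 regions were KO only and 1.12% WT only. All 7 constant ETS1 regions overlapped an H3K27ac region called in all 4 libraries, which 92.0% of all constant ETS1 regions did. Seen from the mark, 8 of the 16 constant H3K27ac regions in the windows overlapped ETS1 in all 4 libraries and 14 in at least 1. Of the same 16, 15 overlapped CTCF in both KO libraries and 10 in both WT libraries. Shares over all constant H3K27ac regions of the genome were not taken, and the CTCF lists were longer in KO cells. These counts can therefore not be read as particular to the 10 genes.

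In genes that act with the class I pathway, H3K27ac coverage was mostly longer in KO cells, as it was at 54.0% of all genes with a peak. Of 5 genes of peptide loading and trimming, all had both KO above both WT libraries, with a median log2 ratio of 0.19 beside 0.18 for all genes. Calr, a chaperone of the loading complex, had 4.56 and 4.08 kb in KO and 3.21 and 3.49 kb in WT libraries, and Canx, a chaperone of new heavy chains, had 5.06 and 4.59 kb in KO and 3.10 and 2.74 kb in WT libraries. Of 7 proteasome activators, assembly factors and standard catalytic subunits, 6 had both KO above both WT libraries and none the reverse, and the list's median log2 ratio was 0.28. The first 2 of these by name were Pomp, the proteasome assembly chaperone, with 5.11 and 5.61 kb in KO and 4.38 and 4.82 kb in WT libraries, and Psmb5, a standard catalytic subunit, with 1.78 and 1.29 kb in KO and 0.790 and 0.928 kb in WT libraries.

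Of 8 other class I and class I-like genes, 4 had both KO above both WT libraries and 1 the reverse, with a median log2 ratio of 0.10. The exception was Mr1, whose product presents vitamin metabolites to MAIT cells, with 0 kb in both KO libraries and 1.05 and 1.13 kb in WT libraries. H2-Q6, a non-classical heavy chain gene of a family with near-identical members, had 2.14 and 3.91 kb in KO and 1.60 and 1.56 kb in WT libraries, and H2-Q7 had 2.59 and 2.64 kb in KO and 1.32 and 1.26 kb in WT libraries. Because of their likeness, values of the H2-Q genes are uncertain.

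Of 16 regulators of class I transcription, 12 had both KO above both WT libraries and none the reverse (median log2 ratio 0.36). Creb1, of the CREB family, had 2.09 and 1.80 kb in KO and 1.75 and 1.71 kb in WT libraries, and Irf1, an interferon-induced activator of class I promoters, had 9.71 and 9.75 kb in KO and 6.60 and 7.44 kb in WT libraries. Of 7 MHC class II genes, 5 had an H3K27ac peak in their window and 3 had both KO above both WT libraries (median log2 ratio 0.25). Cd74, the invariant chain, had 6.82 and 6.72 kb in KO and 2.80 and 3.74 kb in WT libraries, and H2-Ab1, a class II beta chain, had 1.12 and 1.19 kb in KO and 0.874 and 0.757 kb in WT libraries. Ciita, the class II transactivator, and H2-Aa were at 0 kb in all 4 libraries.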

How the data were processed

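The samples were CUT&RUN libraries of KO and WT Th1 cells, in groups of 2 libraries per genotype for H3K27ac, CTCF and ETS1 and 1 for IgG. Reads were paired ends of 38 or 61 bases, per the labels' protocols, and the submitters' processing notes name the aligner BWA and the build GRCm38. Peak names in the deposited files follow the MACS2 form for broad peaks, and each list is of 1 library. Caller options and control use, which no source used here states, set where a peak ends and whether neighbouring peaks are joined. Each deposited list gives the authors' score, a fold enrichment (ratio) and −log10 of p and q; these were used only to rank peaks within a list.

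Peaks were intersected with gene bodies and 10 kb flanks (RefSeq genes, GRCm38.p6; minimum overlap 1 bp) in Python 3.11.15 with pandas 2.3.3. Covered lengths were compared as log2 ratios with 1 kb added. An exact permutation test over libraries (SciPy 1.17.1) was run on sums; no model across genes suits lists without counts. Scripts were tested on simulated peaks. The 10 genes are always named; in a related list, the first 2 by name with both KO above both WT libraries and the first 2 with the reverse are named, and neighbours where a peak lies nearer to them. Genes and lists were chosen with earlier results of these data known. Alternatives covered flanks, list length, score, peak number and leaving out each library.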

Additional observations from a re-analysis of the deposited data

How the results depend on the processing

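Depth is unknown, and WT libraries are technical replicates by their titles (CTCF file names number them otherwise), which limits every value. For H3K27ac, counting peaks in place of length left 1 gene with both KO above both WT libraries and 1 with the reverse, and turned the log2 ratio to -0.21 in the block, -0.49 at Tap1, -0.14 at Tap2, -0.35 at Psmb8 and -0.15 at Psmb9. Gene bodies alone (call lost at Psmb9), equal numbers of top-scored peaks and the better-scored part of each list (call lost at Nlrc5 in both) each left 7. Flanks of 25 kb gave 10, with H2-K1 and H2-D1 added. Leaving out each library in turn gave 8 to 10 genes with KO above WT, and 0 to 2 with the reverse (2 without the first WT library). With a library left out the criterion is easier and can only keep or add genes. These counts could therefore not fall and do not test the calls. With equal numbers of top-scored peaks (the regions and the CTCF starts were an alternative chosen after seeing the data), 0 KO-only H3K27ac regions were left. For CTCF, equal numbers left 3 genes with KO above WT, 0 KO-only and 1 WT-only regions and 0 starts in KO only, with log2 ratios of -0.00067 at B2m, -0.12 at H2-K1, -0.022 at Tap1 and -0.064 at Psmb8. Keeping the peaks above each list's median score left 3 genes with KO above WT and 1 with the reverse, with -0.0096 at B2m, -0.023 at H2-K1 and -0.29 at H2-D1, and the block at 0.04; counting peaks left 5. For ETS1, leaving out each library in turn gave log2 ratios between -1.35 and 0.28 over all windows and between -1.23 and 0.16 in the block, whose number of peaks gave 0.00. Genes with KO above WT numbered 1 to 4, and with the reverse 0 to 7, without 1 library, where counts could likewise not fall. Gene bodies alone gave 2 of the reverse, and equal numbers gave 1 and 4. Within 500 bp, 3 starts had a peak in all 4 libraries, and with equal numbers 1 start did. Shares over all genes were taken at the main settings only. The causes were not tested. Over all alternatives, single-gene values moved by less than the spread between libraries in 81 H3K27ac, 69 CTCF and 97 ETS1 cases, each case being 1 gene in 1 setting. They moved further in 15, 24 and 3 cases, and reversed in 4 H3K27ac and 7 CTCF cases. Because this measure is relative to the spread, and ETS1 libraries differed widely, the 97 does not show that ETS1 values were stable. No paired analysis was possible because replicate numbers count technical repeats in WT and biological replicates in KO.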
